A study of Mus musculus with 285 samples.

Results

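Muscle of F2 mice numbered 51-90 was compared with muscle of F2 mice numbered 271-310. The number was read from each sample title. Numbers 51-90 held 36 mice, numbers 271-310 held 40, and the other numbers, from 91 to 362, held 209, so that 76 of the 285 mice of the series entered the comparison. All of these mice, of both sexes, descended from intercrossed F1 animals of the strains C57BL/6J and C3H/HeJ, with F1 parents made in both directions. All received chow (4% fat) up to the age of 8 weeks, then 12 weeks of Western diet (42% fat, 0.15% cholesterol), and were killed aged 20 weeks, having fasted for 12 hours. No treatment separated the runs. The labels give for single mice no sex, no cross direction, no name of the muscle and no date, so whatever goes with the mouse number cannot be told apart from it.

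Both runs were chosen from measured values: Myh7 was low in both, and the limb factor genes Pitx1, Irx5 and En1 and the slow fibre and tendon genes had been seen when they were chosen. Their values are therefore described without a test. Myh7 encodes the myosin heavy chain of slow, oxidative fibres, which are dense in postural muscles and scarce in most fast limb muscles. Kera encodes keratocan, a small proteoglycan of tendon and cornea. Muscle of fasted mice uses fat as fuel, and the forkhead factor Foxo1 and glucocorticoids switch on genes for protein breakdown and fuel choice. The clock genes and the genes answering to stretch, heat or injury add variation that depends on the hour and the handling of the tissue.

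Myh7 had a log2 ratio of mouse over pool between -5.70 and 0.25 in numbers 51-90, with a median of -4.04. In numbers 271-310 it lay between -5.93 and -0.06, with a median of -3.11, and in the other numbers its median was 0.00. The runs overlapped almost wholly in Myh7, and numbers 51-70, with a median of -5.13, were below numbers 71-90, 271-290 and 291-310, whose medians were -3.19, -3.09 and -3.21. Kera had a lowest, median and highest value of -2.20, 1.34 and 2.89 in numbers 51-90, and of 1.31, 2.13 and 2.90 in numbers 271-310, against a median of -1.17 in the other numbers. Every mouse of numbers 271-310 was thus high in Kera, while numbers 51-90 held both high and low mice. The borders of the runs were not sharp. Mouse 89 had a Myh7 value of 0.25 and a Kera value of -1.94 although it was inside the first run. Mice 270 and 311, outside the second run, had Kera values of 2.14 and 2.26 and Myh7 values of -1.58 and -1.54.

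Slow fibre genes did not all stand in the order of Myh7. Atp2a2, the calcium pump of slow fibres, had a median of -2.47 in numbers 51-90 and -1.40 in numbers 271-310. Tnni1, the inhibitory troponin of slow fibres, had the opposite order, with medians of -0.73 in numbers 51-90 and -1.82 in numbers 271-310, and 24 of the 40 mice of numbers 271-310 lay below every mouse of numbers 51-90. Of 9 measured tendon genes, 7 had lower means in numbers 51-90, among them Chad (chondroadherin, a difference of -1.39), Fmod (fibromodulin, -1.36) and Comp (a matrix protein of tendon and cartilage, -1.20), while the tendon transcription factor gene Scx had a difference of 0.25. The mean of the tendon list lay between -1.12 and 1.73 in numbers 51-90, between 0.88 and 1.68 in numbers 271-310, and had a median of -0.54 in the other numbers. In bulk tissue, fewer cells of a type and less RNA per cell cannot be told apart, and the part of tendon in the results below was examined only by taking the tendon list as a covariate.

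**Figure D1:**
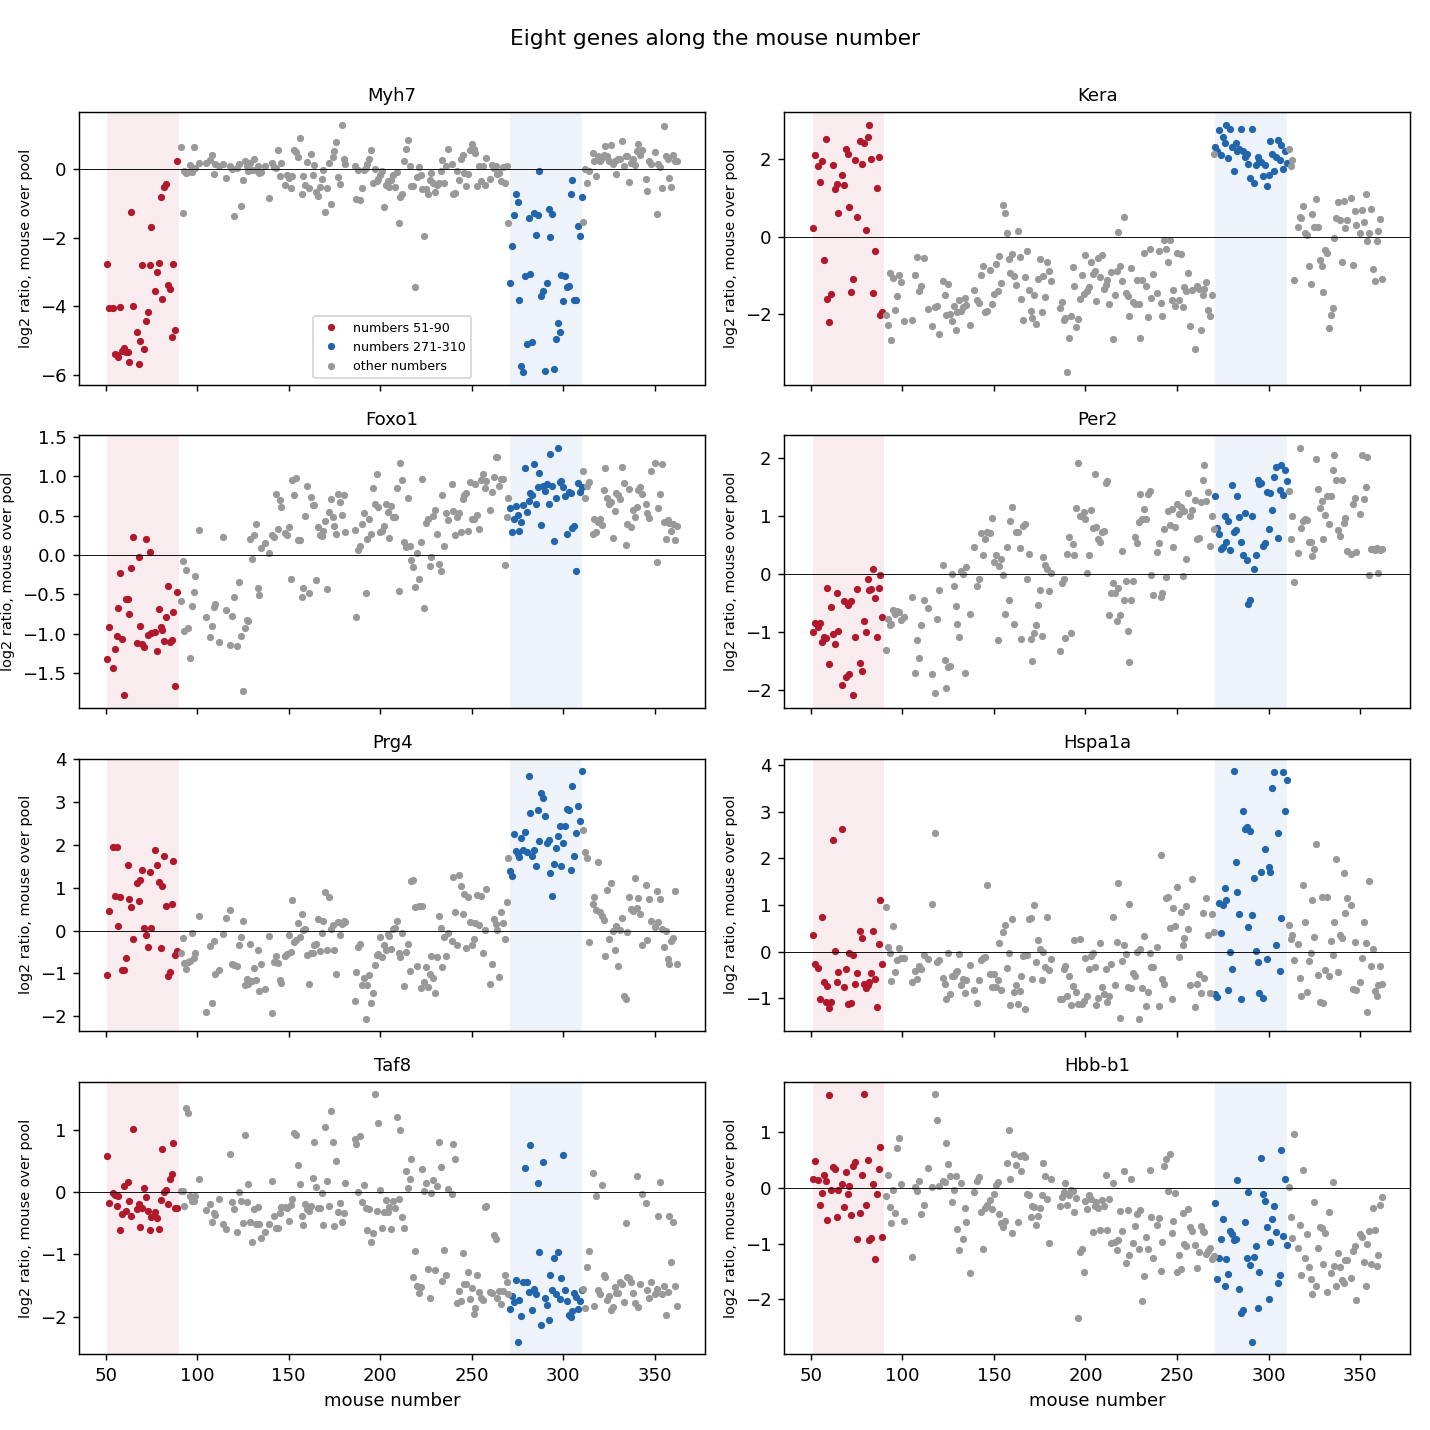
Log2 ratio of mouse over pool of 8 genes (vertical axes) against mouse number (horizontal axes), with 1 point per mouse, red for numbers 51-90, blue for numbers 271-310 and grey for other numbers. Myh7 was low in both shaded runs, Foxo1 and Per2 were low up to about number 130, Prg4 and Hspa1a reached their highest medians in numbers 271-310, and Taf8 was low in most mice from about number 231 on.

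Each array set RNA of 1 mouse, labelled with Cy3, against a pool of equal portions of RNA of all mice, labelled with Cy5. The labels state neither the log base nor the sign of the deposited ratios. They were read as log10 of mouse over pool. The sign was taken from the Y-linked genes Eif2s3y and Kdm5d. Their mean linear ratio to a pool of all mice was then 0.796 and 0.942, against 23.2 and 3.43 with the sign turned. In base 2 these means were 0.751 and 0.885, so these genes do not settle the base. Every size given here assumes base 10. Pairs of arrays correlated with r as low as -0.745 over all probes, and as low as -0.438 between the runs. The direction was taken from Eif2s3y and Kdm5d alone. With the sign turned, every difference keeps its size, and each "higher" becomes "lower". The spread of an array, as the SD of its log2 values, was 0.278 at the median in numbers 51-90 and 0.314 in numbers 271-310, and the SD was outlying in 0 arrays of numbers 51-90 and 3 of numbers 271-310. The median r between arrays was 0.20 within numbers 51-90, 0.40 within numbers 271-310 and 0.10 between the runs. Signal intensities are not used here, so the signal over background of a probe is unknown, and how many arrays there were sets the precision.

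The question was what differed between the runs beyond the low Myh7 that they share. Differences were tested with limma over 21512 features, 11622 named genes and 9890 unnamed probes, and called at an adjusted p under 0.05. Of all features 10308 (47.9%) were called. Of the named genes, 5607 (48.2%) were called, 2986 higher (25.7%) and 2621 lower (22.6%) in numbers 51-90. With the sign turned these would be 2621 higher and 2986 lower. Most differences were small, with a median size of 0.09 and a median of 0.01 over all named genes. Large differences were mostly on the lower side: 71 genes (0.611%) were called and at least 0.5 higher on the log2 scale, and 346 (2.98%) were called and at least 0.5 lower, 417 (3.59%) in all. Of the unnamed probes, 91 (0.92%) were at least 0.5 higher and 157 (1.59%) at least 0.5 lower. These counts of large differences include 9 genes that were seen when the runs were chosen. At a difference of at least 1, the counts were 7 higher and 54 lower. Of the large differences, 70 of the 71 higher and 342 of the 346 lower had both medians of 51-70 and 71-90 on the same side of both medians of 271-290 and 291-310. These genes were chosen for their difference in the same mice, so the choice largely fixes this count.

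**Figure D2:**
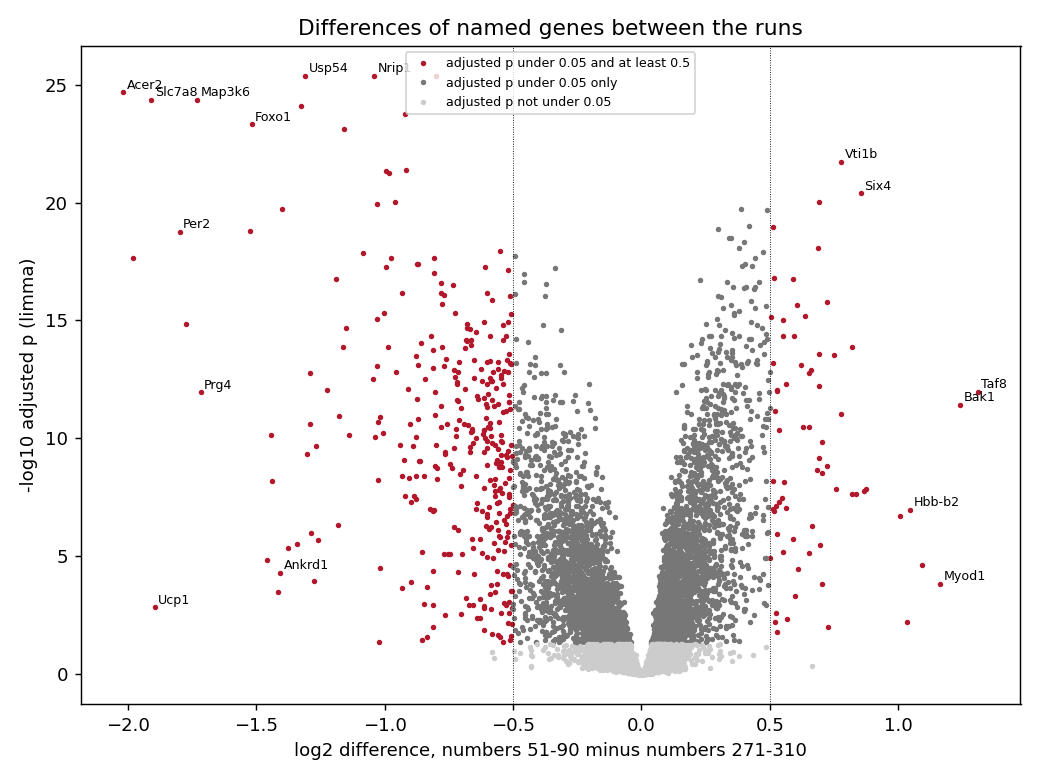
Log2 difference, numbers 51-90 minus numbers 271-310 (horizontal axis), against -log10 of the adjusted p of limma (vertical axis), for named genes without those used to choose the runs. Points past 0.5 on either side (dotted lines) with an adjusted p under 0.05 are red, and the left side, with 346 such genes when those used are counted in, is fuller than the right side with 71.

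In 5 named genes (0.043%) the ranges of the runs did not overlap at all. Acer2, Usp54, Nrip1 and Esam were lower in numbers 51-90, and Vti1b was higher. Acer2 encodes an alkaline ceramidase of the Golgi, which releases sphingosine from ceramide. Its lowest, median and highest values were -2.37, -0.996 and -0.15 in numbers 51-90, and -0.02, 0.95 and 1.78 in numbers 271-310. The difference was -2.02 ± 0.114 (SE), the largest of any named gene in either direction under the naming rule, with an adjusted p of 2.11e-25 in limma. Usp54 (a gene of the ubiquitin-specific peptidase family) differed by -1.31 ± 0.0711 and Nrip1 (a corepressor of nuclear receptors that restrains oxidative genes) by -1.04 ± 0.0568. Usp54 and Nrip1 were named after their values were seen. Esam, an adhesion molecule of vessel walls, differed by -0.80 ± 0.0439. Vti1b, a membrane fusion protein of endosomes, ran from -0.38 to 0.61 in numbers 51-90 and from -1.15 to -0.48 in numbers 271-310, a difference of 0.78 ± 0.0498.

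Most measured genes of the fasting and atrophy list were lower in numbers 51-90. Of 21 listed genes 16 were measured, and the ubiquitin ligase genes Fbxo32 and Trim63 were not among them. Of the 16, 14 were called lower and none higher, and 4 were at least 0.5 lower, with a median difference of -0.34. Map1lc3b (-0.02) and Mstn (0.05) were not called. Of all named genes, 22.6% were called lower and 2.98% lower by at least 0.5. Foxo1, the forkhead factor that drives many of the others, had a lowest, median and highest value of -1.78, -0.93 and 0.22 in numbers 51-90, and of -0.20, 0.75 and 1.36 in numbers 271-310. All 36 mice of numbers 51-90 lay below the median of numbers 271-310, and 38 of the 40 mice of numbers 271-310 lay above the highest of numbers 51-90. The difference was -1.52 ± 0.0909 (adjusted p 4.82e-24, limma). Fkbp5, a chaperone of the glucocorticoid receptor that glucocorticoids induce, differed by -1.16 ± 0.111, and its medians were -0.39 in numbers 51-90 and 0.84 in numbers 271-310. The cell cycle inhibitor gene Cdkn1a differed by -0.81 ± 0.126 and the factor gene Cebpd by -0.78 ± 0.0921, whose 2 probes gave -1.12 and -0.45. Sgk1, a kinase gene induced by glucocorticoids and named after its values were seen, differed by -0.96 ± 0.0973.

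Per2, a repressor of the circadian clock, ran from -2.10 to 0.09 in numbers 51-90 with a median of -0.88, and from -0.51 to 1.89 in numbers 271-310 with a median of 0.95. The difference was -1.80 ± 0.132 (adjusted p 1.76e-19, limma), and 37 of 40 mice of numbers 271-310 exceeded the highest of numbers 51-90. Per1, its close relative, differed by -0.59 ± 0.0548. The rest of the genes that peak with them did not follow. Of 9 measured members, 2 were called lower, Per2 and Per1, where 22.6% of all named genes were called lower. The other 7 lay between -0.02 (Tef) and 0.18 (Nr1d1, adjusted p 0.0816 in limma). Arntl, the activator on the opposite arm of the clock, was 0.32 ± 0.0917 higher. Of the 5 measured genes of that arm, 3 were called higher and 1 lower. Npas2 and Clock were called at 0.07 each, Nfil3 at -0.27, and Cry1 (0.02) was not called. Sik1, a kinase gene that cyclic AMP induces, ran from -2.56 to 0.58 in numbers 51-90 and from -0.68 to 1.61 in numbers 271-310, and differed by -1.77 ± 0.16.

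Further genes of transport and signalling were lower in numbers 51-90. Slc10a6, a carrier of sulphated steroids, had medians of -0.90 in numbers 51-90 and 1.12 in numbers 271-310 and differed by -1.98 ± 0.154. Slc7a8, a carrier of neutral amino acids, had medians of -1.11 in numbers 51-90 and 0.93 in numbers 271-310 and differed by -1.91 ± 0.109. Map3k6, a stress-activated kinase gene, had a lowest, median and highest value of -1.92, -0.88 and 0.03 in numbers 51-90, and of -0.02, 0.89 and 1.66 in numbers 271-310, a difference of -1.73 ± 0.0991. The gene 6430548M08Rik, for which no role is given here, differed by -1.52 ± 0.112. Sphk1, which phosphorylates the sphingosine that ceramidases release, ran from -0.74 to 0.39 in numbers 51-90 and from -0.43 to 3.55 in numbers 271-310, and differed by -1.44 ± 0.174.

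The promoters of the 30 genes with the largest differences, from 250 bases before to 50 after the gene start, were searched in RefSeq's table (GRCm38.p6) for 8 motifs, on both strands. The motifs were TGACGTCA, CACGTG, TTGTTTAC and TGACGCAA, a strict and a loose form of the spaced palindrome of steroid receptors, the heat shock element and 1 form of the CArG box of serum response factor. They were chosen after the values were seen, and each match to the strict palindrome is also a match to the loose one. A promoter was listed for 10 of the 15 higher and 11 of the 15 lower genes. The loose palindrome, of a kind known from binding of the glucocorticoid receptor, was found in 2 of the 11 lower genes, Slc10a6 and Map3k6, in 0 of the 10 higher genes, and in 0.537% of the 27025 genes of the table. These promoters are shown because both genes are among the lower genes described above. Capitals mark the match, on chr5:103629354-103629653 (minus strand) for Slc10a6 and chr4:133240568-133240867 (plus strand) for Map3k6.
Slc10a6: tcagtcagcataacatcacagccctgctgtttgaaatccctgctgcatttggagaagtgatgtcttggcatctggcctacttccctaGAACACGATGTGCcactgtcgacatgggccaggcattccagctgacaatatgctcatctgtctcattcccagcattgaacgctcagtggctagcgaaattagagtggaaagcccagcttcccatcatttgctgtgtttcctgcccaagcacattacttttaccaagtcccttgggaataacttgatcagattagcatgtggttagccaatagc
Map3k6: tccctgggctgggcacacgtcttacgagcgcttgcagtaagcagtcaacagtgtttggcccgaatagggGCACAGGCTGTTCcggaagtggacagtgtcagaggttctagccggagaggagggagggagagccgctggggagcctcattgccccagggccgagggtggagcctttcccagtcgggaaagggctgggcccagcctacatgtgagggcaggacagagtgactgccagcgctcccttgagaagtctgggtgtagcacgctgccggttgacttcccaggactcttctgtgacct
The matches began 163 and 181 bases before the gene start. TGACGTCA, the element known from cyclic AMP response, was found in Btg2 alone (2.03% of all genes). CACGTG, the element known from clock factors, was found in 6430548M08Rik and Sphk1 on the lower side and Taf8 on the higher side (8.09% of all genes), and the other motifs were found in none. A match is a string of letters and was not tested for binding.

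Within the runs, Foxo1 was set against 7 genes over mice, in 14 relations tested by permutation with 100000 shuffles and adjusted over the 14. In numbers 51-90, Foxo1 correlated with Acer2 (Pearson r 0.511, Spearman rho 0.505, adjusted permutation p 0.00541 and 0.0101) and Fkbp5 (r 0.536, rho 0.481, adjusted permutation p 0.00434 and 0.0101). In numbers 271-310, it correlated with Sik1 (r 0.527, rho 0.479, adjusted permutation p 0.00434 and 0.0101), Map3k6 (r 0.470, rho 0.413, adjusted permutation p 0.00791 and 0.0234) and Fkbp5 (r 0.408, rho 0.467, adjusted permutation p 0.0286 and 0.0101). With the 2 mice left out whose Foxo1 lay farthest from its median, these r were 0.518, 0.470, 0.458, 0.362 and 0.387 in the order given. Within each pair of sub-runs, Acer2 gave r of 0.705 and 0.372 in 51-70 and 71-90, Fkbp5 0.556 and 0.550 there and 0.414 and 0.462 in 271-290 and 291-310, where Sik1 gave 0.457 and 0.605 and Map3k6 0.399 and 0.554. Per2, Slc10a6 and Ppargc1a did not pass in either run, with r between -0.208 and 0.204. Map3k6 (r 0.381, adjusted permutation p 0.0502) and Sik1 (r 0.257) did not pass in numbers 51-90, nor Acer2 (r 0.0549) in numbers 271-310. Whether these relations differ between the runs was not tested.

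Genes of fat use were lower in numbers 51-90. Of 18 measured genes of fatty acid uptake and oxidation, 14 were called lower and none higher, and 5 were at least 0.5 lower, where 22.6% of all named genes were called lower and 2.98% lower by at least 0.5. Ppargc1a, a coactivator of mitochondrial genes, ran from -1.06 to 1.37 with a median of -0.44 in numbers 51-90, and from -0.29 to 1.70 with a median of 0.57 in numbers 271-310, a difference of -1.03 ± 0.103. Ppara, the receptor that fatty acids activate, differed by -1.03 ± 0.092, the thioesterase gene Acot1 by -0.89 ± 0.131 and the carnitine carrier gene Slc25a20 by -0.61. The genes Cpt1b and Pdk4 of the same list had differences of -0.05 each and were not called. Respiratory chain genes did not go the same way: of 7 measured, 3 were called higher and 1 lower, with a median difference of 0.10. Among all named genes, 25.7% were called higher. Of 14 measured genes of fatty acid and triglyceride synthesis, 6 were called lower and none higher, 5 of them by at least 0.5. Fasn, the fatty acid synthase, ran from -1.13 to 2.30 in numbers 51-90 and from -0.89 to 4.22 in numbers 271-310, and differed by -0.85 ± 0.223. Dgat2, which makes triglycerides, differed by -0.79 ± 0.107. Of 10 measured glycolysis genes 6 were called lower and 1 higher, none by 0.5, with Hk2, the hexokinase of insulin-sensitive tissue, at -0.42.

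Matrix and stretch genes showed the same direction. Of 15 measured genes of fibroblast matrix, 13 were called lower and none higher, 6 of them by at least 0.5, against the 22.6% and 2.98% of all named genes. Lox, which cross-links collagen, ran from -1.27 to 1.31 in numbers 51-90 with a median of 0.22, and from 0.59 to 2.50 in numbers 271-310 with a median of 1.40, and differed by -1.23 ± 0.13. Postn (periostin) differed by -0.90 ± 0.135. Prg4, the lubricant proteoglycan of joints and tendon sheaths, had a lowest, median and highest value of -1.05, 0.61 and 1.96 in numbers 51-90, and of 0.81, 2.10 and 3.72 in numbers 271-310, against a median of -0.22 in the other numbers. Its difference was -1.72 ± 0.184 (adjusted p 1.12e-12, limma) and its median was above that of the other numbers in both runs. The growth factor gene Ccn2, which stretch and TGF-beta induce, differed by -1.29 ± 0.151, and Thbs2 (a thrombospondin of connective tissue) by -1.04 ± 0.126. Ccn2 and Thbs2 were named after their values were seen. The tendon list, whose median list mean was 0.73 in numbers 51-90 and 1.28 in numbers 271-310, stood in the same order. With its mean as a covariate, Lox differed by -0.69 ± 0.119, Prg4 by -0.87 ± 0.149, Postn by -0.57 ± 0.153 and Ccn2 by -0.84 ± 0.162, each still called in limma, while Foxo1 (-1.47), Acer2 (-1.87), Per2 (-1.87) and Taf8 (1.32) stayed close to their values without it. The tendon genes had been seen when the runs were chosen, and their mean differed between the runs. This covariate therefore cannot tell tendon apart from the run.

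Of 9 measured LIM and ankyrin-repeat genes of the stretched sarcomere, 8 were called lower and 1 higher, and 5 were at least 0.5 lower, against the same shares. Ankrd1, a titin-bound ankyrin-repeat protein that injury and load induce, ran from -1.80 to 3.08 in numbers 51-90 with a median of -0.06, and from -0.66 to 5.02 in numbers 271-310 with a median of 0.98. It differed by -1.41 ± 0.297. Its median in the other numbers was -1.06, below both runs. Xirp1, an actin-binding protein of the same kind of damage response, differed by -0.90 ± 0.2 and Pdlim1 by -0.89 ± 0.111. Pdlim3 was the member called higher, at 0.31.

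Stress genes were high in some mice of numbers 271-310. Hspa1a, an inducible chaperone of the heat shock response, ran from -1.21 to 2.64 in numbers 51-90 with a median of -0.45, and from -1.01 to 3.87 in numbers 271-310 with a median of 1.08. Of the 40 mice of numbers 271-310, 8 exceeded every mouse of numbers 51-90. The difference was -1.46 ± 0.286, from 2 probes that gave -1.81 and -1.11, and transcripts of its near-identical copy may bind these probes. Of the 12 measured heat shock genes, 5 were called lower and 1 higher, 3 of them by at least 0.5, all lower, against 22.6% and 2.98% of all named genes called lower and lower by 0.5, including the co-chaperone gene Dnajb1 at -1.02 ± 0.209. Of 17 measured immediate early genes, 10 were called lower and 2 higher, and 4 were at least 0.5 lower. Btg2, which slows cell division, differed by -1.44 ± 0.201 and the stress factor gene Atf3 by -1.18 ± 0.195, whereas Fos (-0.30) and Egr1 (-0.58) were not called. Hmox1, the haem oxygenase, had medians of 0.29 in numbers 51-90 and 1.76 in numbers 271-310 and differed by -1.29 ± 0.221. Adm, a hormone gene that hypoxia induces, differed by -1.03 ± 0.0715, with all 36 mice of numbers 51-90 below the median of numbers 271-310, and 7 of 11 measured hypoxia genes were called lower and 1 higher. Cxcl10, a chemokine gene that interferon induces, was named after its values were seen and differed by -1.34 ± 0.242, while of 21 measured interferon genes 9 were called lower, none by 0.5.

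**Figure D3:**
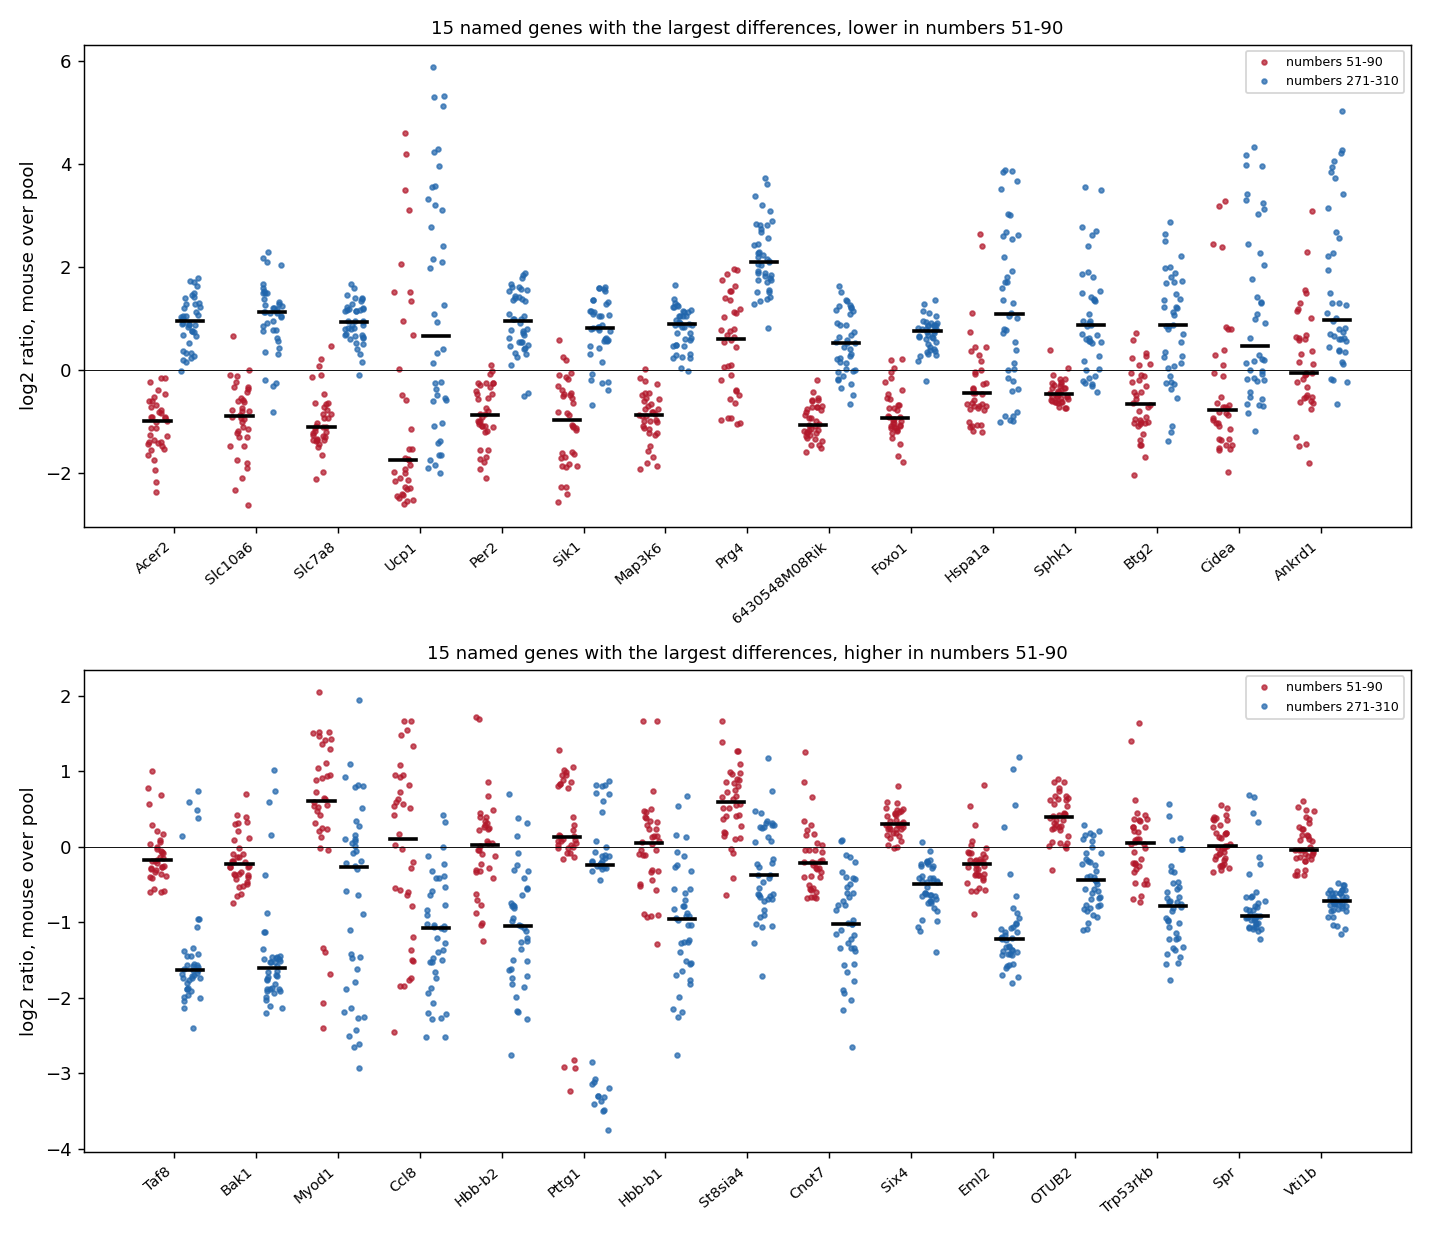
Log2 ratio of mouse over pool (vertical axes) of the 15 genes with the largest lower and the 15 with the largest higher differences, each mouse as a point and each median as a black line, with numbers 51-90 in red to the left of numbers 271-310 in blue. Acer2 and Vti1b did not overlap between the runs, whereas Ucp1 spanned from -2.61 to 4.60 in numbers 51-90 and from -2.01 to 5.89 in numbers 271-310.

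Genes of other cell types differed too. Ucp1, the uncoupling protein of brown fat, ran from -2.61 to 4.60 with a median of -1.74 in numbers 51-90, and from -2.01 to 5.89 with a median of 0.66 in numbers 271-310, against a median of -2.12 in the other numbers. Both runs thus held mice with and without high Ucp1. Its medians by sub-run were -1.95 in 51-70, -1.01 in 71-90, 2.68 in 271-290 and -0.05 in 291-310. The difference was -1.90 ± 0.514 (adjusted p 0.00147, limma), and Cidea, another gene of brown fat, differed by -1.42 ± 0.339. The call of Ucp1 was lost in 5 of 21 alternatives and that of Cidea in 3. Of 11 measured brown fat genes, 6 were called lower and 1 higher, and 5 were at least 0.5 lower, where 22.6% of all named genes were called lower and 2.98% lower by at least 0.5. Of these, Ppargc1a also stands in the list of fat oxidation. The mean of the list lay between -0.77 and 1.11 in numbers 51-90 and between -0.30 and 1.70 in numbers 271-310. The higher member was Cox7a1, a respiratory chain subunit of muscle and brown fat, at 0.52. Of 9 measured white fat genes, 3 were called lower, 2 of them by at least 0.5.

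Of 8 measured Schwann cell genes, 4 were called lower by at least 0.5 and 2 were called higher, Mag (0.05) and Sox10 (0.07). Of all named genes, 22.6% were called lower, 2.98% lower by at least 0.5 and 25.7% higher. Among the 4, Egr2 (-0.68) also stands in the list of immediate early genes. Mbp, a main protein of myelin, had medians of -0.78 in numbers 51-90 and 0.21 in numbers 271-310 and differed by -1.02 ± 0.117. Pmp22, of peripheral myelin, differed by -0.82 ± 0.0763. Of 14 measured endothelial genes, 7 were called lower and 2 higher, and Esam alone was lower by 0.5. The liver gene Fgg, a fibrinogen chain, spanned from -2.94 to 4.47 in numbers 51-90 and from -1.45 to 6.27 in numbers 271-310 and differed by -0.86 ± 0.35 (adjusted p 0.0364, limma), a call lost in 11 of 21 alternatives, while 12 of 14 measured liver genes were not called. Of all named genes, 48.2% were called. The part of these cell types in the other differences was not tested.

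**Figure D4:**
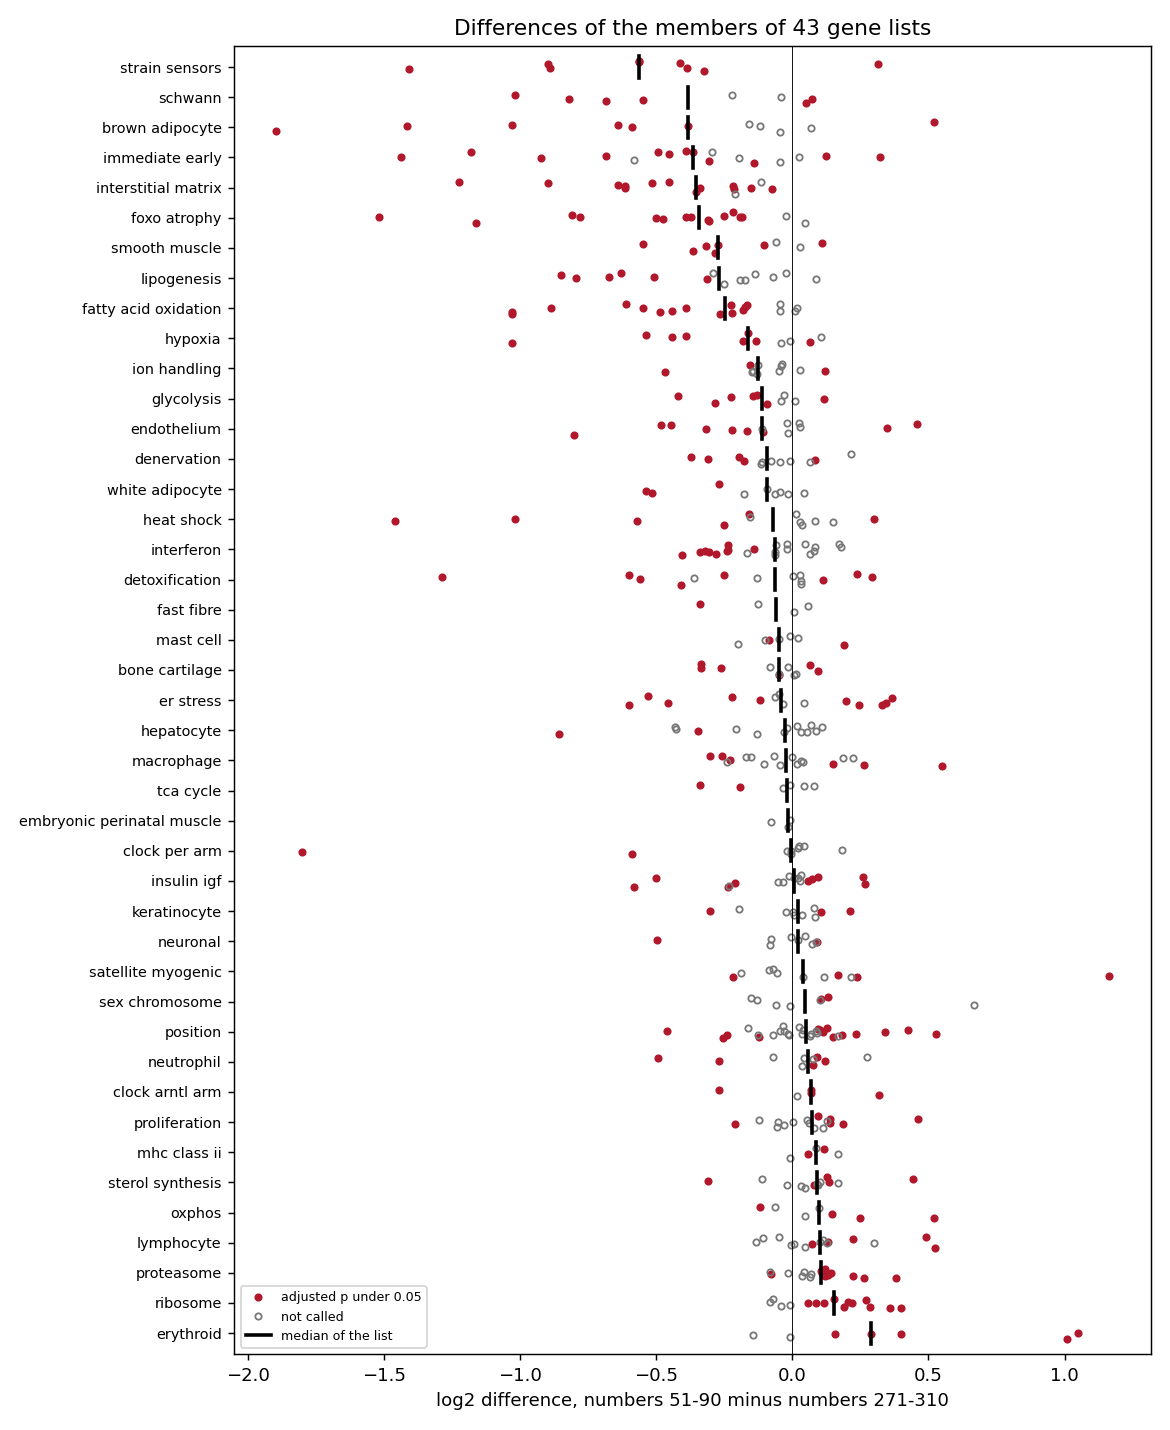
Log2 difference, numbers 51-90 minus numbers 271-310 (horizontal axis), of each measured member of 43 gene lists (rows), filled red where limma's adjusted p was under 0.05, with the list's median as a black line. Members of the fasting, matrix, stretch and fat use lists lay mostly to the left, and those of the ribosome, proteasome and red cell lists mostly to the right.

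The genes that were higher in numbers 51-90 formed fewer groups. Taf8, a subunit of the general transcription factor TFIID, had a lowest, median and highest value of -0.60, -0.18 and 1.01 in numbers 51-90, and of -2.40, -1.63 and 0.75 in numbers 271-310, and differed by 1.31 ± 0.14 (adjusted p 1.03e-12, limma). Bak1, a protein of the mitochondrial death pathway, differed by 1.24 ± 0.137, Eml2, a microtubule protein, by 0.84 ± 0.122, and Spr, the last enzyme of tetrahydrobiopterin synthesis, by 0.78 ± 0.0886. In numbers 271-310, mice 279, 282, 286, 289 and 300 lay apart in these genes. Taf8 was between 0.15 and 0.75 in these 5 mice and between -2.40 and -0.96 in the other 35. Bak1 was between -0.37 and 1.01 in the 5 and between -2.19 and -0.87 in the 35, and Tie1, a receptor of endothelium, was between 0.44 and 0.83 in the 5 and between -1.33 and -0.16 in the 35. Vti1b did not set them apart, with values of -1.09 to -0.61 in the 5 and -1.15 to -0.48 in the 35. Without them, a comparison chosen after the values were seen, the differences of Taf8, Bak1, Eml2 and Spr were 1.58, 1.50, 1.06 and 0.94. The mice left out were those with high values in these genes, so the choice fixes that these differences grew.

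Myod1, the master factor of the myogenic lineage, ran from -2.40 to 2.05 with a median of 0.61 in numbers 51-90, and from -2.93 to 1.95 with a median of -0.27 in numbers 271-310, so that the runs overlapped widely. It differed by 1.16 ± 0.263 (adjusted p 0.000148, limma). Myog, the factor that follows it in differentiation, differed by 0.22 ± 0.155 and was not called (adjusted p 0.256). Six4, a homeobox factor of muscle development, was between -0.01 and 0.81 in numbers 51-90 and between -1.39 and 0.07 in numbers 271-310 and differed by 0.85 ± 0.0581. Pttg1, the securin that delays the separation of sister chromatids, was either above -0.72 or below -2.31 in every mouse of the series. It was below -2 in 4 of 36 mice of numbers 51-90, all of them in 71-90, in 13 of 40 mice of numbers 271-310, and in 68 of 209 others. Its mean differed by 1.03 ± 0.323, and among mice with the high level the median was 0.16 in numbers 51-90 and -0.12 in numbers 271-310. The chemokine gene Ccl8 differed by 1.09 ± 0.221 and the polysialic acid synthase gene St8sia4 by 0.88 ± 0.126.

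The globin genes Hbb-b1 and Hbb-b2 differed by 1.01 ± 0.161 and 1.05 ± 0.163. Hbb-b1 ran from -1.28 to 1.67 in numbers 51-90 with a median of 0.05, and from -2.76 to 0.67 in numbers 271-310 with a median of -0.95. Both are close copies whose probes may share transcripts, so their values are not independent. Hba-a1, an alpha globin gene, differed by 0.40 ± 0.109, and of 7 measured red cell genes 5 were called higher and none lower, where 25.7% of all named genes were called higher and 22.6% lower. Of 15 measured genes of ribosomal proteins 11 were called higher and none lower, none by 0.5, led by Rps3 at 0.40. Of 16 measured proteasome genes 9 were called higher and 1 lower, none by 0.5. The 5 of 15 measured lymphocyte genes called higher, with none lower, were near the share of all named genes, and the 3 of 18 measured macrophage genes called higher and 3 called lower were below it.

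The runs lie far apart in the numbers, so the numbers beside them were compared in the same way, a comparison added after the values were seen. The 30 mice of numbers 91-130 were set against the 75 mice of numbers 231-270 and 311-350, none of which belong to the runs, although every array shares the pool. In these neighbours, 51.4% of named genes were called, 29% higher and 22.4% lower, and 0.749% were called and at least 0.5 higher and 2.81% at least 0.5 lower. Of the 71 genes that were at least 0.5 higher in numbers 51-90, 60 were also called higher in numbers 91-130, and of the 346 that were at least 0.5 lower, 317 were also called lower there. The sign was opposite in 5 of the higher and 7 of the lower genes. Per2 differed by -1.80 ± 0.132 between the runs and by -1.83 ± 0.119 between the neighbours. Foxo1 differed by -1.52 between the runs and -1.30 between the neighbours, and Acer2 by -2.02 between the runs and -1.87 between the neighbours. Bak1 differed by 1.24 between the runs and 1.30 between the neighbours, and Hbb-b1 by 1.01 between the runs and 1.001 between the neighbours. The medians of Myh7 in successive 20 numbers of the neighbours lay between -0.06 and 0.29, although single mice among them were as low as -1.58. Those of Kera were -1.41 and -1.88 in 91-110 and 111-130, and -1.13 and -1.40 in 231-250 and 251-270. In 311-330 and 331-350 they were 0.25 and 0.17, so the neighbours also differed in this tendon gene. They differed too in the limb gene Hoxa11, described below, which did not differ by the test between the runs. What part such differences have in the shared calls was not tested.

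The medians of successive 20 numbers show where the levels moved. Foxo1 had medians of -0.91, -0.96, -0.65 and -0.83 in the 4 steps from 51-70 to 111-130, of 0.26 in 131-150, and between 0.14 and 0.87 in all later steps. Per2 lay between -0.996 and -0.61 in the first 4 steps and was 0.16 in 131-150. Later it was -0.28 in 171-190 and -0.20 in 211-230, and between 0.29 and 1.40 in the other steps. Taf8 lay between -0.43 and 0.07 in every step up to 211-230 and between -1.66 and -1.28 in every step from 231-250 on. Vti1b changed earlier, with a median of -0.01 in 191-210 and -0.56 in 211-230, and it was back at -0.19 in the last step, from 351 on. Hmox1 lay between -0.58 and 0.33 in every step up to 231-250, and was 1.47, 1.20, 2.13 and 1.53 in the 4 steps from 251-270 to 311-330.

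**Figure D5:**
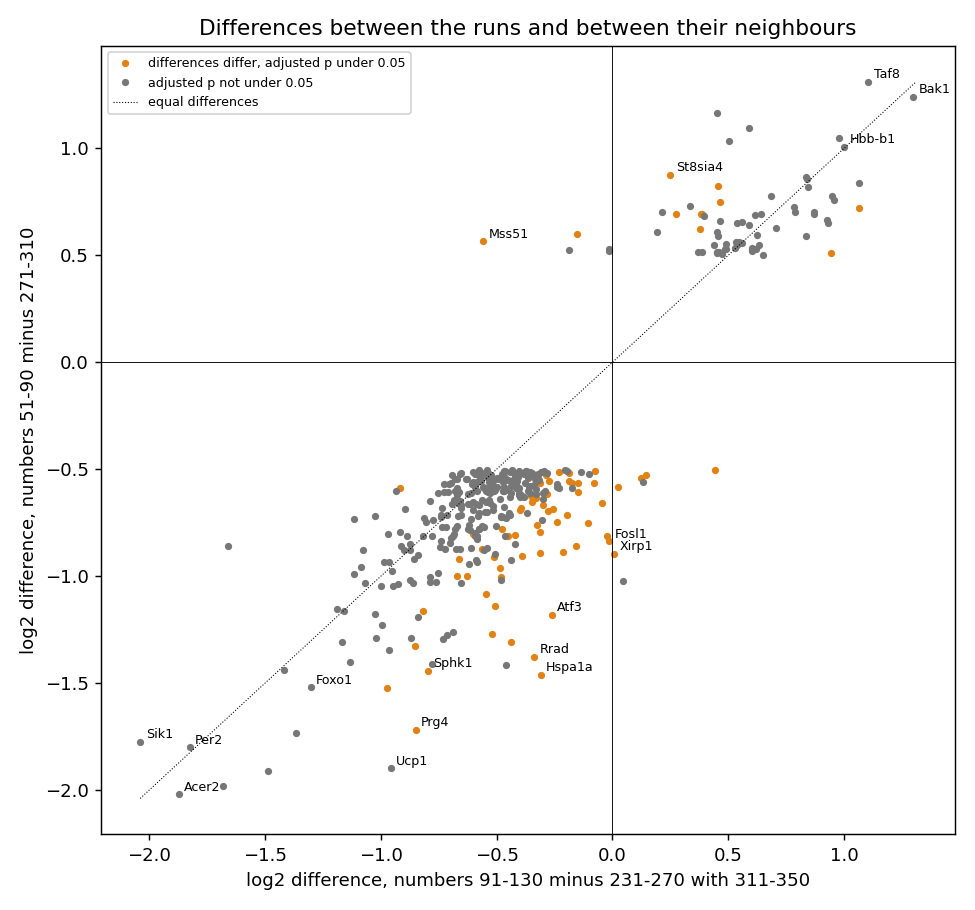
Log2 difference between the runs, 51-90 minus 271-310 (vertical axis), against the log2 difference between their neighbours, 91-130 minus 231-270 with 311-350 (horizontal axis), for the genes with a called difference of at least 0.5 between the runs, without those used to choose the runs. Acer2, Per2, Taf8 and Bak1 lie near the dotted line of equal differences, and orange points such as Hspa1a (-1.46 against -0.31) and Xirp1 (-0.90 against 0.01) are genes whose differences themselves differed.

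Whether the difference between the runs exceeded that between the neighbours was tested in limma as the difference of both differences, over all features. Of the named genes 1083 (9.32%) were called, 383 higher (3.3%) and 700 lower (6.02%), and 16 (0.138%) and 37 (0.318%) of them by at least 0.5. Of the 346 genes lower by 0.5, 62 were called lower in this test and 1 was called higher, and of the 71 higher genes 10 were called higher and 2 lower. These genes were chosen for their difference between the runs, which enters this test, so the choice partly fixes the direction of these calls. The counts by at least 0.5 include 3 genes seen when the runs were chosen. Hspa1a had a difference of differences of -1.15 (adjusted p 0.01), Atf3 of -0.92 (adjusted p 0.00467), Xirp1 of -0.90 (adjusted p 0.00576), Prg4 of -0.87 (adjusted p 0.00763) and Pdlim1 of -0.58 (adjusted p 0.00091). Prg4 had medians of 1.99 and 2.16 in 271-290 and 291-310, against 0.15 in 251-270 and 0.43 in 311-330. Hspa1a had 1.03 and 1.64 there, against 0.30 and 0.17. Among genes named after their values were seen, Rrad, a GTPase gene induced in injured muscle, had -1.04 (adjusted p 0.00683), Fosl1, a partner of Jun, -0.82 (adjusted p 0.00471), Enah, an actin regulator, -0.79 (adjusted p 0.00268) and the integrin-like gene Itgbl1 -0.87 (adjusted p 0.000717). Foxo1 (-0.22, adjusted p 0.265), Per2 (0.03, adjusted p 0.96) and Ucp1 (-0.94, adjusted p 0.392) did not pass, and Slc7a8 (-0.42, adjusted p 0.0546) did not either.

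Genes that mark position along the body were called about as often as all named genes. Of 30 measured homeobox and T-box genes not used in the choice, 10 were called higher and 4 lower, where 25.7% of all named genes were called higher and 22.6% lower. Irx3, an Iroquois factor, was the only one past 0.5, with 0.53 ± 0.19, a call lost in 7 of 21 alternatives, and medians of -0.58 in numbers 51-90 and -1.03 in numbers 271-310. Tbx15, a factor of fast fibres and limb patterning, differed by -0.46 ± 0.0493 and Meox1 by 0.42. Irx5, described only, had medians of -1.61 in numbers 51-90, -1.93 in numbers 271-310 and 0.21 in the other numbers. Pitx1 had medians of -0.54 in numbers 51-90, -0.61 in numbers 271-310 and 0.06 in the others, and En1 of 1.14 in numbers 51-90, 1.43 in numbers 271-310 and -0.50 in the others, so that both runs lay on the same side of the others in each. Hoxa11, a patterning gene of the limb named after its values were seen, did not differ by the test between the runs (0.17 ± 0.0959, adjusted p 0.144) and differed by -1.31 between the neighbours.

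Eif2s3y, a Y-linked translation factor gene, split the mice by a gap between -2.53 and -1.27. Above the gap were 20 of 36 mice of numbers 51-90 and 24 of 40 mice of numbers 271-310. The mean difference was 0.67 and was not called (adjusted p 0.43, limma). Above the gap the values ran from 0.61 to 1.11 in numbers 51-90 and from -0.49 to 0.04 in numbers 271-310, without overlap. The medians of mice above the gap were between 0.83 and 1.10 in every 20 numbers up to 191-210, and between -0.28 and -0.01 in every 20 numbers from 211-230 on. Kdm5d, another Y-linked gene, overlapped above its gap, with values of 0.32 to 1.37 in numbers 51-90 and -0.09 to 0.74 in numbers 271-310. The mice above the gap were 13 of 18 in 51-70 and 7 of 18 in 71-90. With Eif2s3y as a covariate, the counts of called genes were 2989 higher and 2654 lower. Above the gap, Eif2s3y itself differed between the runs, so this covariate cannot tell the split of the mice apart from the run.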

How the data were processed

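The authors deposited 1 table of log values for 285 two-channel arrays and 23560 probes. Its log10 unit is inferred, since the log10 base and the sign of the deposited ratios are not given in the sources used here. Deposited values were bounded at -2 and 2 (178 and 471 values). Per the labels, RNA was extracted on spin columns, amplified and labelled, with the mouse in Cy3 and the pool in Cy5. Array normalisation is not given in the sources used here.

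Kept were 23510 probes measured on 80% of arrays or more, with missing values set to the probe mean, values multiplied by 3.32 to give log2, and the probes of a gene averaged. Symbols came from the platform annotation, updated by RefSeq, with 13653 probes having 1 symbol, 48 several and 9859 none. limma 3.58.1 in R 4.3.3 (lmFit, eBayes) compared the 76 arrays, with Benjamini-Hochberg adjustment over 21512 features. The step was tested on simulated data with independent noise for each gene and mouse, so that test does not cover mice or genes that vary together. The labels do not say whether mice shared a cage, litter or day, so p-values measure the spread between mice as arrayed.

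Members and lists (45 lists, 540 of 708 genes measured) were chosen with earlier results of these data known. Named by rule were the 15 largest differences each way whose sub-run medians did not cross, and up to 4 members of each list. Alternatives left out or reweighted arrays, changed scaling, probes, base, threshold or replicates, or added a covariate. Those without 5 mice and with neighbouring numbers were added after the values were seen.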

Additional observations from a re-analysis of the deposited data

Results flagged for a closer look

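For 6 of the 30 genes with the largest differences, the difference between numbers 51-90 and 271-310 itself differed, by limma's test over all features, from the difference between the neighbouring numbers 91-130 and 231-270 with 311-350. The test was added after the values were seen, and 9.32% of named genes passed it. The 30 genes were chosen by the difference between the runs, so the direction is partly fixed by that choice. The lower genes were Hspa1a (a difference of differences of -1.15), Prg4 (-0.87), Sphk1 (-0.65, adjusted p 0.0254) and 6430548M08Rik (-0.55, adjusted p 0.0161), whose differences of means were further below 0 between the runs than between the neighbours. The higher genes were St8sia4 (0.63, adjusted p 0.00837) and OTUB2 (0.37, adjusted p 0.0159).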

How the results depend on the processing

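No paired analysis was possible because no mouse number occurs in both runs. With means over 10 numbers as replicates, 4 per run, 1563 genes were called higher and 1712 lower, and 385 of the 417 large differences were called again in the same direction. With the tendon list as a covariate, 219 genes were lower by at least 0.5, and with the first component of all arrays as a covariate 200 were, and 377 and 325 of the 417 were called again in the same direction, while 7 and 7 had the opposite sign. Read in base 2, no test changed, but 0 genes would be higher and 8 lower by 0.5. Without mice 279, 282, 286, 289 and 300, 3087 genes were called higher and 2681 lower, 90 and 378 of them by at least 0.5. With Eif2s3y as a covariate, Kdm5d, which was not called, had a difference of -0.30 against 0.10. No other alternative moved a count by over 1.5 times. Of 70 called named genes, 54 kept their call in all 21 alternatives. The 16 that lost it in at least 1 were Fgg (in 11), Irx3 (7), Ucp1 (5), Arntl, Cidea, Hba-a1 and Meox1 (3 each), Ankrd1, Fasn, Fosl1, Rps3 and Tie1 (2 each), and Enah, Postn, Pttg1 and Xirp1 (1 each). The first component as a covariate ended 11 of these calls and means over 10 numbers 9. What lies behind these changes was not tested. The number of arrays and the unknown signal over background limit what low probes can show.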
